A study of Homo sapiens with 4 samples.

Results

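The genes described here make, sense and remove prostaglandins. They are 10 genes, taken from the deposited expression table by symbol: PLA2G4A, PTGS1, PTGS2, PTGES, PTGES2, PTGES3, PTGIS, PTGER2, PTGER4 and HPGD. The table lists 19314 genes, and all 10 had a value. They were measured by RNA-seq in U87 cells, a human line from a malignant glioma, to find which transcripts change when PTPRN is knocked down. PTPRN is a receptor-type protein of secretory vesicles in the tyrosine phosphatase family, and the study describes its phosphatase domain as inactive. There were 2 libraries labelled PTP2 with the genotype PTPRN knockdown and 2 labelled SCR, the control. The study's methods place the hairpins in the pLKO.1 vector. No label names the hairpin. The study's heat map calls its knockdown samples shPTPRN-2, and the PTP2 libraries were read as that 1 hairpin from this name alone. The growth protocol filed with all 4 libraries names hCMEC/D3, a brain endothelial line, in DMEM/F12 with B27, insulin, EGF and bFGF, while the study's methods give U87 in DMEM with serum. No source says that the 2 libraries of a group came from separate cultures, so the p-values below measure only the spread between these libraries.

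Prostaglandins are lipid signals made from arachidonate, which the cytosolic phospholipase A2 (PLA2G4A) cuts out of membrane phospholipids. The cyclooxygenases COX-1 (PTGS1) and COX-2 (PTGS2) turn it into prostaglandin H2. COX-1 is mostly steady, and COX-2 is induced by cytokines and growth factors. The E synthases (PTGES, PTGES2, PTGES3) then give prostaglandin E2, and PTGIS gives prostacyclin. Prostaglandin E2 acts through receptors such as EP2 (PTGER2) and EP4 (PTGER4), which raise cyclic AMP, and is inactivated by HPGD. COX-2 and prostaglandin E2 are well known from glioma, where they are studied for growth and for immune suppression.

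The values are FPKM, the fragments mapped to a gene scaled to the length of its transcripts and to the size of the library, so levels may be compared between genes. Reads were single-end with 50 bases. The files give no read totals. From the steps between low FPKM values, 17900000 to 19400000 reads per library were estimated, and 11080 to 11252 genes had an FPKM of 1 or more. PTPRN had an FPKM of 12.1 and 11.7 in the PTP2 libraries and 84.8 and 85.0 in the SCR libraries. The difference on the log2 scale was -2.74 (SE 0.03, adjusted p = 1.48e-04, limma). Of 8 glioma line markers, 3 were higher, 3 were lower and 2 were not called. VIM, CD44 and OLIG2 rose from means of 1958, 152 and 0.52 in SCR to 4665, 315 and 1.03 in PTP2. NES, CHI3L1 and GFAP fell from means of 13.6, 90.7 and 0.5 in SCR to 3.25, 30.4 and 0.165 in PTP2. The astrocyte and stem cell markers GFAP, S100B and SOX2 were below 1 in all libraries. Of 8 endothelial markers, 0 reached 10 and their summed FPKM was 3.89 to 4.45, with 3 higher (KDR, TEK and ERG), 2 lower (PECAM1 and VWF) and 3 not called. PECAM1 was the highest of them in each library, at 1.21 to 2.5. Of 6 myeloid markers with a value, 1 was higher, 2 were lower and 3 were not called. Only CD68 reached 10, and their summed FPKM was 237 and 238 in SCR and 363 and 345 in PTP2. The part of these marker shifts in the results below was not tested. The 2 genes with a value at the CDKN2A locus, which U87 is known to lack, summed to at most 0.34. In these bulk libraries, fewer cells with a transcript and less transcript per cell cannot be told apart.

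The PTP2 libraries held far more PTGS2 and PLA2G4A transcript than the SCR libraries. PTGS2 was 15.2 times and PLA2G4A 7.07 times as high. PTGES3, PTGES2 and HPGD rose by less. PTGS1 and PTGIS had lower values in both PTP2 libraries but did not pass the test. In PTGES and the receptors PTGER2 and PTGER4 the groups overlapped. Fold changes are differences of log2(FPKM + 1) between PTP2 and SCR, which understate the change of genes near or below 1. They were tested with limma and adjusted over all 16595 genes with a value by the Benjamini-Hochberg method. At an adjusted p of at most 0.05, 5 of the 10 members were called, all higher in PTP2. Across all genes 57.9% were called, 30.8% higher and 27.1% lower, so the share of members called was no larger than that of genes in general. With the stricter thresholds of the study's methods, a fold change of 2 or more at an adjusted p up to 0.001, 2 of the 10 members were differential, both higher. In all genes 6.69% were differential, and 2.63% were differential and higher. The groups did not overlap in 7 members, 5 higher and 2 lower, against 75.6% of all genes. The median log2 fold change was 0.16 over the members and 0.01 over all genes. For 1 gene in 2 libraries against 2, the smallest p of a two-sided exact permutation test is 0.333.

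**Figure D1:**
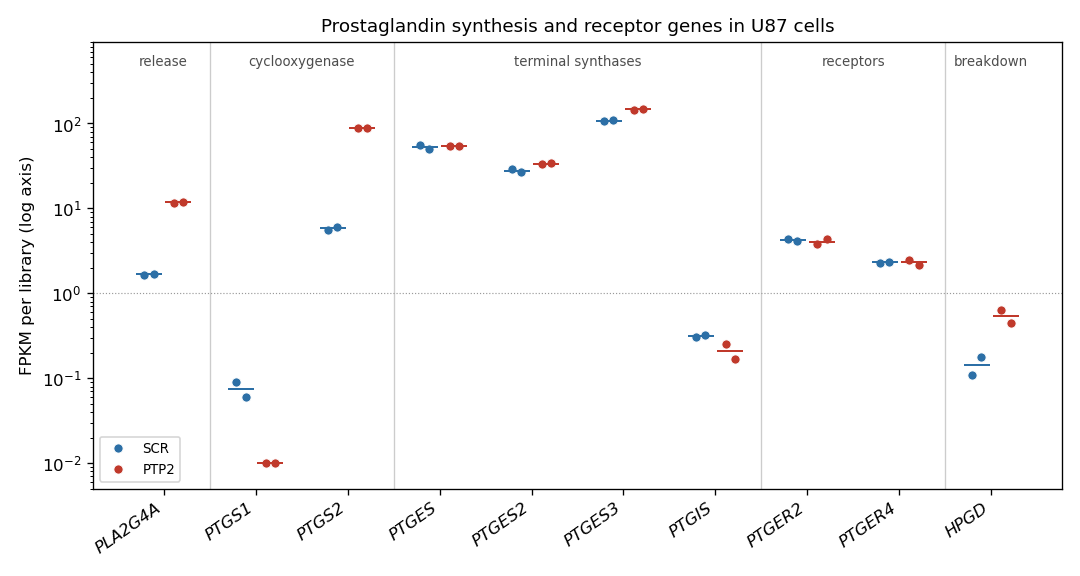
FPKM of each of the 10 genes in each of the 4 libraries on a log axis, with points for libraries, lines for group means, and the genes in the order of the pathway. PTGS2 (88.8 and 88.6 in PTP2 against 5.63 and 6.01 in SCR) and PLA2G4A (11.7 and 11.9 against 1.66 and 1.68) stand apart from the genes around them, while PTGS1, PTGIS and HPGD lie below the dotted line at 1 in all libraries.

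Since PTGS2 and PLA2G4A carried the largest changes, the sequence before their start sites is shown, with that of PTGES, which did not pass the test, for comparison. The RefSeq promoter table (GRCh38.p14) held 9 of the 10 members, and PTGIS was without an entry. Windows of 250 bases before the annotated start were searched, and the bases that lie outside the gene as the deposited table places it are printed, 5′ to 3′ on the strand of the gene. They are chr1:186680428-186680673 (minus strand) for PTGS2, chr1:186828699-186828899 (plus strand) for PLA2G4A and chr9:129753066-129753292 (minus strand) for PTGES. Capitals mark matches to the motifs searched.
PTGS2: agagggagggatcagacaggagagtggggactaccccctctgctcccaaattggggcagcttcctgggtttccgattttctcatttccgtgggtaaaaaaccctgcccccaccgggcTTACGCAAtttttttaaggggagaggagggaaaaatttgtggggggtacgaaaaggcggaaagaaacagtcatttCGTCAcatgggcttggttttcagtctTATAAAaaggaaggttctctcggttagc
PLA2G4A: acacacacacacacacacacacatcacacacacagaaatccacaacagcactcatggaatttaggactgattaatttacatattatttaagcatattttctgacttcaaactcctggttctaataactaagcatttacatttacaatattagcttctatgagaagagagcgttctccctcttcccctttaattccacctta
PTGES: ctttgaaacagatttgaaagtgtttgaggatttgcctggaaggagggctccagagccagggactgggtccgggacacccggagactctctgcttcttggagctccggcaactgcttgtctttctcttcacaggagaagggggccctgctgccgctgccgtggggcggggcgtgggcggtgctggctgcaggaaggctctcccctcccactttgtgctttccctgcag

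The motifs were the TATA box TATAAA, the CRE motif CGTCA bound by CREB, the C/EBP motif TTNNGCAA, the AP-1 motif TGANTCA and the NF-kappa B consensus, each on both strands. No match overlapped another in these 3 windows. The PTGS2 window held a TATA box that begins 32 bases before the start, a CRE motif at 58 bases and a C/EBP match at 133 bases, all on the strand of the gene. The windows of PLA2G4A and PTGES held 0 matches. Among 35116 promoter windows of the same length, 10.7% held the TATA box, 21.2% the CRE motif, 9.05% the C/EBP motif, 6.57% the AP-1 motif and 5.21% the NF-kappa B consensus. The GC content was 50.4% for PTGS2, 38.8% for PLA2G4A and 61.2% for PTGES, with a median of 58.0% over all windows. Of the other members, PTGES3, PTGER2 and 1 of the windows of HPGD held a CRE motif, PTGER4 an NF-kappa B match and 1 of the windows of PTGS1 a TATA box. These matches describe letters only, and binding was not measured. Only exact matches to each pattern were counted, and sites that differ from it were not searched. A window without a match, such as that of PTGS2 for NF-kappa B, may therefore still hold a site.

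PLA2G4A (Gene ID 5321), the calcium-dependent phospholipase that frees arachidonate, lies on chromosome 1 from 186828900 to 186988981 on the plus strand (GRCh38). Its FPKM was 11.7 and 11.9 in the PTP2 libraries and 1.66 and 1.68 in the SCR libraries. Both PTP2 values were far above both SCR values, and the replicates nearly coincided. The means were 11.8 ± 0.148 (SD, n = 2) and 1.67 ± 0.0141 (SD, n = 2). The log2 fold change was 2.26 (SE 0.03, 95% confidence interval 2.18 to 2.35, adjusted p = 1.49e-04, limma). With a pseudocount of 0.1 in place of 1 it was 2.75. In the order of all 16595 genes by FPKM the gene moved from place 10585 in SCR to place 5631 in PTP2. At the estimated depth its values stood for about 608 and 616 reads in PTP2 and 93 and 87 in SCR.

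PTGS2 (Gene ID 5743), the inducible cyclooxygenase, lies on chromosome 1 from 186671812 to 186680427 on the minus strand. It had an FPKM of 88.8 and 88.6 in the PTP2 libraries. In the SCR libraries it had 5.63 and 6.01. The groups were widely separate, at 88.7 ± 0.141 (SD, n = 2) and 5.82 ± 0.269 (SD, n = 2). The log2 fold change was 3.72 (SE 0.04, 95% confidence interval 3.60 to 3.83, adjusted p = 1.39e-04, limma). Among all genes tested, 16 had a higher log2 fold change than PTGS2, and 58 a higher one than PLA2G4A. PTGS2 moved from place 7953 of 16595 in SCR to place 839 in PTP2. About 7108 and 7067 reads stood behind the PTP2 values and 486 and 480 behind the SCR values. PTGS2 and PLA2G4A kept adjusted p-values of at most 0.0229 in each of 10 alternative settings (log2 fold changes 3.67 to 3.91 and 2.22 to 2.75). Their differential call at 0.001 was lost where any 1 of the 4 libraries was left out. The adjusted p of both genes was 0.0228 without PTP2 replicate 1, 0.0226 without PTP2 replicate 2, 0.0229 without SCR replicate 1 and 0.0226 without SCR replicate 2. It was 0.00130 with a pseudocount of 0.1. In each of these fits 0 of all genes passed the stricter thresholds, while limma gave 8700 to 10185 of them an unadjusted p under 0.05.

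PTGS1 (Gene ID 5742), the steady cyclooxygenase, lies on chromosome 9 from 122370530 to 122395703 on the plus strand. It was nearly absent, with an FPKM of 0.01 in both PTP2 libraries and 0.09 and 0.06 in the SCR libraries. These values stood for about 1 read each in PTP2 and 9 and 6 reads in SCR. Both PTP2 values were below both SCR values, but the log2 fold change of -0.09 (SE 0.03) did not pass the test (adjusted p = 0.0814, limma). With a pseudocount of 0.1 it was -0.66 (adjusted p = 0.0170), and with an eBayes trend the adjusted p was 0.0429, so the call depended on the setting at this depth. PTGS2 made up 98.4% and 99.0% of the summed cyclooxygenase FPKM in the SCR libraries and 99.989% in both PTP2 libraries.

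The 3 prostaglandin E synthases were well expressed in all libraries, and 2 of them rose by less than a fold of 2. PTGES (Gene ID 9536, chromosome 9, 129738336 to 129753065, minus strand) is the membrane-bound synthase that is often induced with COX-2. It had an FPKM of 54.7 and 54.8 in PTP2 and 55.4 and 50.4 in SCR. The PTP2 values lay between the SCR values. It differed by 0.05 on the log2 scale (SE 0.06, 95% confidence interval -0.11 to 0.21, adjusted p = 0.514, limma). Its sign turned without SCR replicate 2, at -0.02, and with quantile normalization, at -0.01. PTGS2 transcript was 0.102 and 0.119 times that of PTGES in the SCR libraries and 1.62 times in both PTP2 libraries.

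PTGES2 (Gene ID 80142, chromosome 9, 128120693 to 128128462, minus strand), a second membrane-associated synthase, had an FPKM of 33.6 and 33.8 in PTP2 and 29.0 and 26.7 in SCR. Both PTP2 values were higher, by a ratio of 1.21. The log2 fold change was 0.27 (SE 0.05, 95% confidence interval 0.12 to 0.41, adjusted p = 0.0168, limma). The call was lost without PTP2 replicate 1 (0.27, adjusted p = 0.137) and without PTP2 replicate 2 (0.26, adjusted p = 0.143). PTGES3 (Gene ID 10728, chromosome 12, 56663341 to 56688408, minus strand) is the cytosolic synthase, better known as p23, a co-chaperone of HSP90. It was the most abundant member in every library, with an FPKM of 145.8 and 148.7 in PTP2 and 107.5 and 108.6 in SCR. The groups did not overlap, at 147 ± 2.06 (SD, n = 2) and 108 ± 0.721 (SD, n = 2). PTGES3 rose by a log2 fold change of 0.44 (SE 0.03, 95% confidence interval 0.36 to 0.53, adjusted p = 0.00117, limma). GENCODE 29 names 5 pseudogenes of PTGES3, and how reads shared with them were counted is not given in the sources used here, so its level is uncertain.

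The summed FPKM of the 3 E synthases was 234 and 237 in PTP2 and 192 and 186 in SCR. PTGES3 made up 62.3% and 62.7% of it in PTP2 and 56.0% and 58.5% in SCR. PTGIS (Gene ID 5740, chromosome 20, 49503874 to 49568170, minus strand), the prostacyclin synthase, was low, with an FPKM of 0.25 and 0.17 in PTP2 and 0.31 and 0.32 in SCR. Its values rested on about 17 to 33 reads per library. The PTP2 values were the lower ones, but the log2 fold change of -0.12 (SE 0.04) did not pass the test (adjusted p = 0.0930, limma). It passed without PTP2 replicate 1, at -0.17 (adjusted p = 0.0474).

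**Figure D2:**
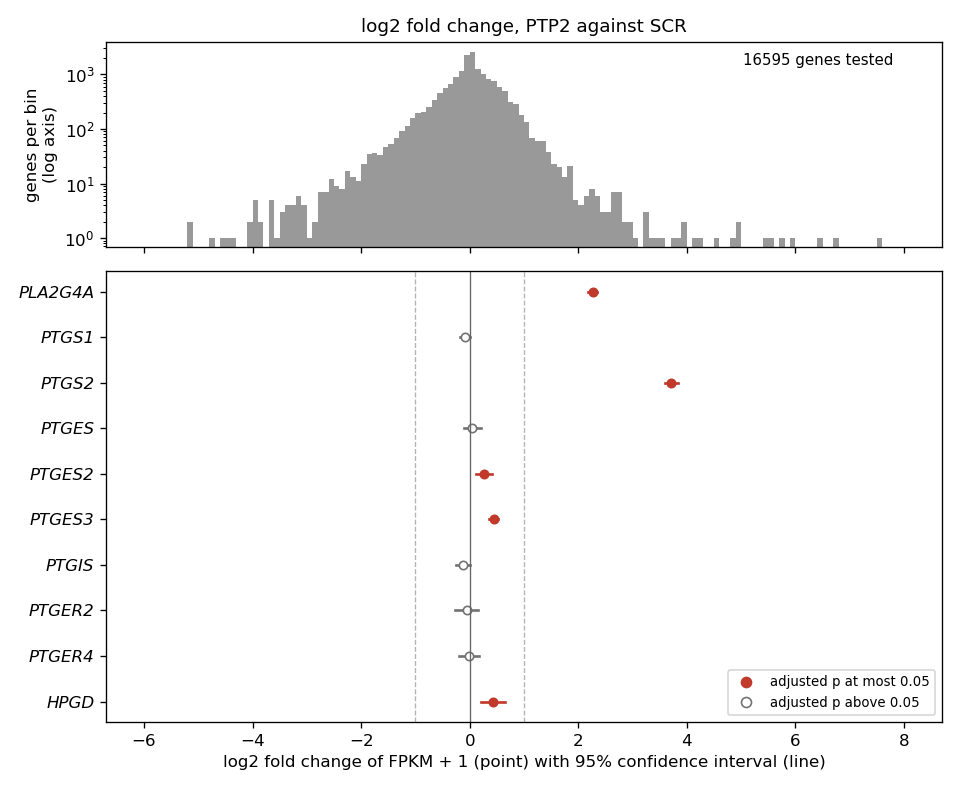
Log2 fold changes of FPKM + 1, PTP2 against SCR. The upper panel counts all 16595 genes tested in bins on a log axis, and the lower panel gives each of the 10 genes as a point with its 95% confidence interval, filled where the adjusted p was at most 0.05, with dashed lines at a fold change of 2. PTGS2 at 3.72 and PLA2G4A at 2.26 lie far out in the distribution, and the other 8 members lie between -0.12 and 0.44.

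Neither of the receptors passed the test. PTGER2 (Gene ID 5732, chromosome 14, 52314298 to 52328606, plus strand), the EP2 receptor, had an FPKM of 3.76 and 4.35 in PTP2 and 4.38 and 4.10 in SCR. The groups overlapped. On the log2 scale the difference was -0.05 (SE 0.07, 95% confidence interval -0.26 to 0.16, adjusted p = 0.589, limma), and it was 0.03 without PTP2 replicate 1. PTGER4 (Gene ID 5734, chromosome 5, 40679930 to 40693735, plus strand), the EP4 receptor, had an FPKM of 2.49 and 2.14 in PTP2 and 2.29 and 2.37 in SCR. Here too the groups overlapped, since the SCR values lay between the PTP2 values. The log2 fold change was -0.01 (SE 0.06, 95% confidence interval -0.19 to 0.17, adjusted p = 0.926, limma). It was 0.07 without PTP2 replicate 2 and 0.01 without SCR replicate 2. TTC33 runs across PTGER4 on the other strand. GENCODE 29 also names 2 pseudogenes of PTGER4. Whether strand was used in counting is not given in the sources used here, so its level is uncertain. These receptor values rested on about 129 to 207 reads per library.

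HPGD (Gene ID 3248, chromosome 4, 174490177 to 174522898, minus strand), the dehydrogenase that starts the breakdown of prostaglandin E2, had an FPKM of 0.63 and 0.45 in PTP2 and 0.11 and 0.18 in SCR. Both PTP2 values were above both SCR values. The means were 0.54 ± 0.127 (SD, n = 2) and 0.145 ± 0.0495 (SD, n = 2), and about 34 and 24 reads stood against 6 and 10. The log2 fold change was 0.43 (SE 0.08, 95% confidence interval 0.21 to 0.64, adjusted p = 0.0134, limma), and 1.39 with a pseudocount of 0.1. The call was lost without PTP2 replicate 1 (0.34, adjusted p = 0.0749), without SCR replicate 1 (0.38, adjusted p = 0.149) and without SCR replicate 2 (0.47, adjusted p = 0.115). HPGD stayed below an FPKM of 1 in every library.

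By level, the SCR libraries ran PTGES3, PTGES, PTGES2, PTGS2, PTGER2, PTGER4, PLA2G4A, PTGIS, HPGD and PTGS1. In the PTP2 libraries the order was PTGES3, PTGS2, PTGES, PTGES2, PLA2G4A, PTGER2, PTGER4, HPGD, PTGIS and PTGS1. No neighbours in either order overlapped in their 2 libraries. PTGS2 passed PTGES and PTGES2, PLA2G4A passed both receptors, and HPGD passed PTGIS. The ratio of PTGS2 to PLA2G4A transcript was 7.59 and 7.43 in PTP2 and 3.39 and 3.58 in SCR. Of the 10 members, 7 reached an FPKM of 1 in at least 2 libraries, and PTGS1, PTGIS and HPGD were below 1 in all.

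PTGS2 and PLA2G4A are neighbours on chromosome 1. Their start sites lie 148.5 kb apart, and they are transcribed away from each other. From 1 Mb below PTGS2 to 1 Mb above PLA2G4A in coordinates the table lists 8 genes, and 5 had a mean FPKM of at least 1. TPR, a nuclear pore protein gene, lay at -0.06 on the log2 scale (adjusted p = 0.256, limma). C1orf27 lay at -0.08 (adjusted p = 0.380). HMCN1, a gene of the extracellular matrix protein hemicentin, was lower in PTP2, with an FPKM of 0.39 and 0.40 against 2.34 and 2.64 and a log2 fold change of -1.32 (SE 0.05, adjusted p = 4.71e-04, limma). Its start lies 945.9 kb from that of PTGS2. PRG4, OCLM and PDC were below 1 in both groups and were not called. This window was chosen after the values of PTGS2 and PLA2G4A were known.

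**Figure D3:**
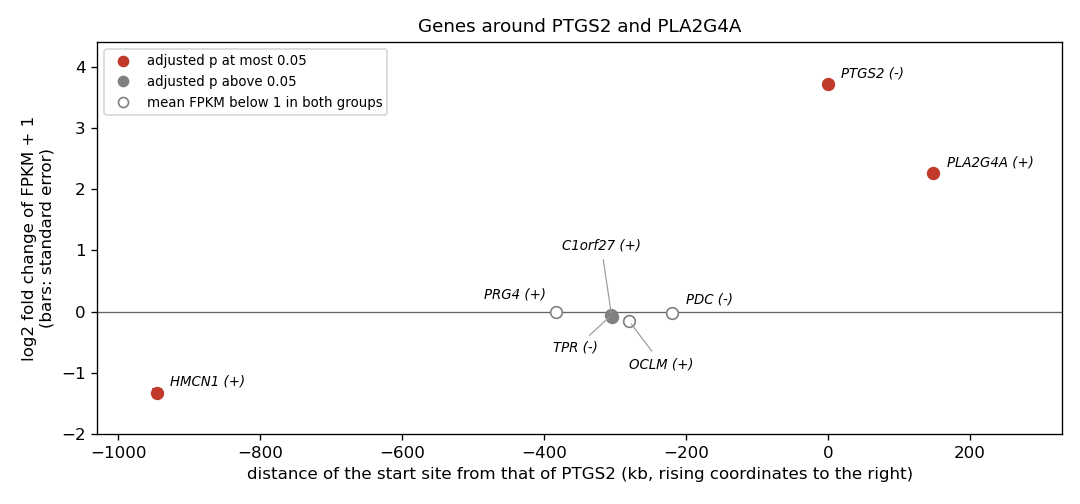
Log2 fold change of FPKM + 1, PTP2 against SCR, for the 8 genes from 1 Mb below PTGS2 to 1 Mb above PLA2G4A. The x axis is the distance of their start site from that of PTGS2 in kb, with standard errors as bars and the strand in brackets. PTGS2 and PLA2G4A, 148.5 kb apart, are high, TPR and C1orf27 lie near 0, HMCN1 is at -1.32, and open points have a mean FPKM below 1 in both groups.

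The genes whose pattern over the 4 libraries lay nearest to that of PTGS2, by the Euclidean distance of centred log2(FPKM + 1) values, were IL24, DHRS3 and CXCL8. Since there are only 2 groups, nearness here is mainly a like fold change. IL24, a cytokine gene, was at a distance of 0.142, with an FPKM of 46.9 and 46.2 in PTP2 and 2.12 and 2.54 in SCR (log2 fold change 3.84). DHRS3, a retinaldehyde reductase gene, was at 0.195, with 32.9 and 31.2 against 1.87 and 1.72 (3.56). CXCL8, the gene of the neutrophil chemokine interleukin-8, was at 0.205, with 744 and 765 against 49.6 and 49.0 (3.91).

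The hairpin target was set against the members' own transcripts, since near matches can silence other genes. The sequence below is that listed for shPTPRN-2, which is the hairpin of these libraries only if the name PTP2 was read rightly.
shPTPRN-2: aactgcctccaagggcatatt

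In 64 GENCODE 29 transcripts of the 10 members there was no exact match to these 21 bases. The best alignment without gaps had 7 mismatches, in HPGD, and the other members had at least 8. PTPRN held an exact match. Matches to only a part of the 21 bases were not searched, so silencing through shorter matches was not tested.

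The wider pathway moved in both directions. Of 94 other genes in 8 lists, 89 had a value, and 36 rose, 22 fell and 31 did not pass an adjusted p of 0.05 (limma), with a median log2 fold change of 0.03. The share called was 65.2%, against 57.9% of all genes. Of the 89, 22 were below an FPKM of 1 in all libraries. In the fit of only genes with an FPKM of 1 in 2 or more libraries, 56 pathway genes were called, and 9043 of all 11480 genes. How many pathway genes that fit held was not counted, so no share is given for it. Without SCR replicate 1 the count of 58 called genes was 35, and without SCR replicate 2 it was 36. The supply of arachidonate held 19 genes with a value, and 6 rose, 8 fell and 5 did not pass, with a median of -0.07. FADS2, the desaturase of the first step toward arachidonate, fell from an FPKM of 21.3 and 19.7 in SCR to 5.85 and 6.15 in PTP2 (log2 fold change -1.62, adjusted p = 3.71e-04, limma). ACSL3, which activates fatty acids, fell by 1.05 on the log2 scale (adjusted p = 3.45e-04), and the secreted phospholipase PLA2G12A fell by 0.66 (adjusted p = 5.93e-04).

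Among 6 other terminal synthases with a value, 2 rose, 3 fell and 1 did not pass, with a median of -0.20. AKR1B1, an aldose reductase that can make prostaglandin F2 alpha, was one of the most abundant transcripts, at 11923 and 11910.0 in SCR, and had 3398.5 and 3317.8 in PTP2 (log2 fold change -1.83, adjusted p = 1.72e-04, limma). AKR1C3, another prostaglandin F synthase, fell from 47.0 and 47.7 to 16.4 and 14.4 (-1.56, adjusted p = 5.51e-04). The AKR1C genes are similar in sequence, so their split is uncertain. The thromboxane synthase TBXAS1 rose from 1.49 and 1.39 to 2.94 and 2.29 (0.56, adjusted p = 0.0143), a call lost without SCR replicate 1 (adjusted p = 0.148) or SCR replicate 2 (0.167).

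Of 7 other prostanoid receptors, 1 rose, 2 fell and 4 did not pass, with a median of -0.02, and 5 were below an FPKM of 1 in all libraries. PTGER3, the EP3 receptor, which lowers cyclic AMP, fell from 2.06 and 2.08 to 0.55 and 0.77 (log2 fold change -0.89, adjusted p = 0.00192, limma). The call was lost without SCR replicate 1 or SCR replicate 2 (adjusted p = 0.0638 and 0.0639). The thromboxane receptor TBXA2R fell from 5.22 and 5.79 to 3.85 and 3.48 (-0.48, adjusted p = 0.00742), and without any 1 of the 4 libraries its adjusted p was 0.0637 to 0.0868. In transport and breakdown, 3 of 5 genes with a value rose, 1 fell and 1 did not pass, with a median of 0.22. PTGR1, which reduces prostaglandin breakdown products, rose from 48.1 and 50.6 to 89.7 and 88.0 (0.84, adjusted p = 5.91e-04). The carbonyl reductase CBR3 rose by 0.89 (adjusted p = 0.00159, and 0.0520 without PTP2 replicate 2), and ZADH2, a prostaglandin reductase, fell by 0.67 (adjusted p = 5.87e-04).

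**Figure D4:**
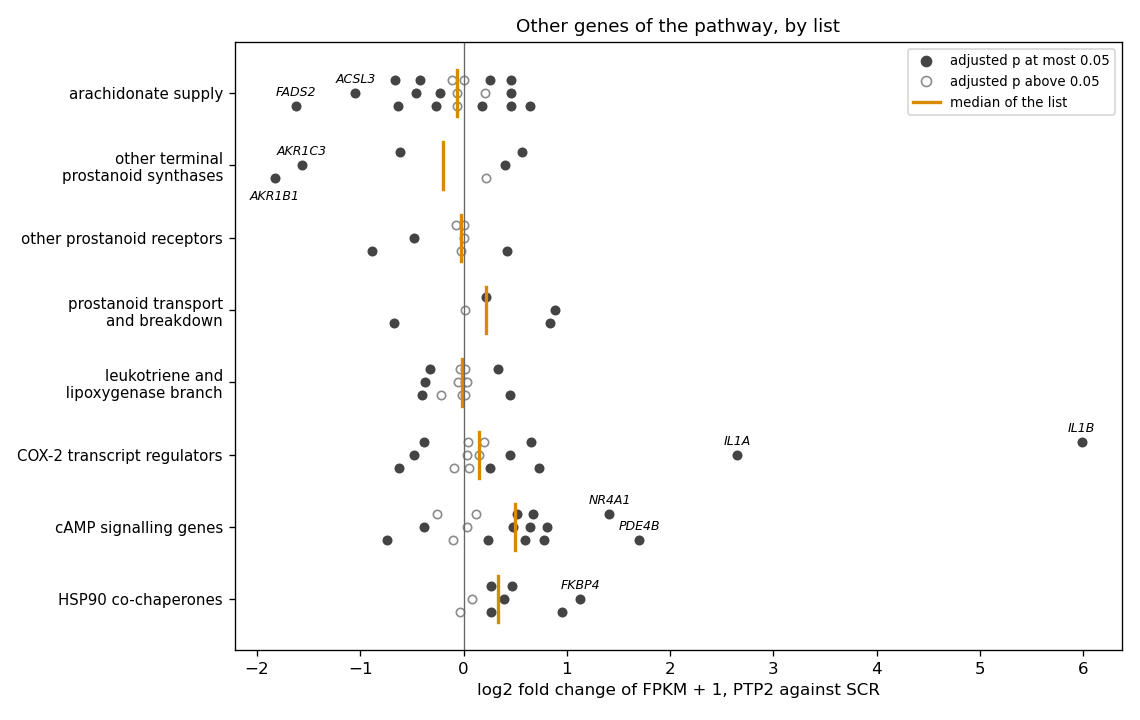
Log2 fold change of FPKM + 1, PTP2 against SCR, of the genes with a value in 8 lists around the prostaglandin pathway. Each point is a gene, filled where the adjusted p was at most 0.05, and the bar is the median of its list, from -0.20 for the other terminal synthases to 0.50 for the cyclic AMP signalling genes. Genes rose and fell in most lists, and IL1B at 5.99 lies farthest out.

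Known regulators of the COX-2 transcript were also read. Of 15 with a value, 6 rose, 3 fell and 6 did not pass, with a median of 0.15. IL1B, the cytokine interleukin-1 beta, had an FPKM of 2816.8 and 2782.3 in PTP2 and 43.5 and 42.8 in SCR (log2 fold change 5.99, adjusted p = 6.90e-05, limma). IL1A rose from 1.89 and 1.87 to 17.2 and 16.9 (2.65, adjusted p = 1.47e-04), and the transcription factor gene CEBPB rose from 80.6 and 77.8 to 132.7 and 131.2 (0.73, adjusted p = 5.80e-04). Whether these transcripts bear on PTGS2 was not tested.

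Of 16 genes of cyclic AMP signalling, the route of EP2 and EP4, 10 rose, 2 fell and 4 did not pass, with a median of 0.50. The share called was 75.0%, and the share higher 62.5%, against 57.9% and 30.8% of all genes. Most genes of the list respond to cyclic AMP, and 4 are components of the route, of which ADCY7 and PRKACB rose, PRKAR1A fell and PRKACA did not pass. PDE4B, a phosphodiesterase that degrades cyclic AMP, rose from 2.27 and 2.07 to 9.14 and 9.46 (log2 fold change 1.70, adjusted p = 3.08e-04, limma). The nuclear receptor gene NR4A1 rose from 0.69 and 0.50 to 3.26 and 3.22 (1.41, adjusted p = 6.27e-04). The kinase gene SIK1 rose by 0.81 (adjusted p = 0.00632, and 0.104 and 0.106 without PTP2 replicate 1 and PTP2 replicate 2). Many of the response genes also respond to other signals. Of 8 genes of HSP90 and its co-chaperones, the other role of PTGES3, 6 rose, 0 fell and 2 did not pass, with a median of 0.33. The share called, all of it higher, was 75.0%, against 57.9% of all genes called and 30.8% called higher. These shares of all genes include genes near 0, while every gene of this list reached an FPKM of 1. In the fit of only genes with an FPKM of 1 in 2 or more libraries, 9043 of 11480 were called, 4950 of them higher. The shares of the cyclic AMP and HSP90 lists were not computed in that fit, so they cannot be set against its counts. FKBP4 rose by 1.13 (adjusted p = 4.62e-04, limma), STIP1 by 0.95 (4.03e-04) and HSP90AB1 by 0.47 (0.00109). PTGES3, at 0.44, lay near HSP90AB1.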

How the data were processed

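RNA-seq of U87 cells gave 4 libraries, 2 PTP2 and 2 SCR, grouped by titles and genotypes. The authors deposited FPKM values per gene and library, rounded to 2 decimals, on genes with NCBI Gene IDs. The submitters' processing notes name HISAT2 2.1.0 and hg19, while the positions in the table are those of GRCh38, since all 10 members lay within 432 bases of GENCODE 29. The counting program, annotation and use of strand are not given in the sources used here. FPKM agreed between both deposited tables in all 66380 values compared. The 15 columns of the authors' own comparisons (fold changes, p-values, false discovery rates and calls) and 2 columns of group means were not used.

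Counts were not among the files used here, so log2(FPKM + 1) was tested with limma 3.58.1 (R 4.3.3, lmFit and eBayes, defaults, group as the only term) over the 16595 genes above 0 in any library, with Benjamini-Hochberg adjustment. Each gene had 3.72 degrees of freedom, and the script was tested on simulated data. Depth was estimated from the steps of FPKM below 0.3 in genes with 1 transcript of 600 to 2000 bases. Of these steps 89.44% to 92.46% lay within 0.2 of whole reads. Reads given in the text are such estimates, taken with the length of the longest transcript. They are less certain for members with more transcripts, such as PTGS1 with 7 and HPGD with 6. Python 3.11.15 was used for tables, sequences and plots.

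The members and gene lists were chosen with earlier results of these data known. Besides the members, at most 3 genes of each list are named, those with the largest absolute log2 fold change among called genes whose higher group averaged an FPKM of 1 or more, and the 3 genes nearest to PTGS2. HMCN1, TPR, C1orf27, PRG4, OCLM, PDC, ADCY7, PRKACB, PRKAR1A, PRKACA and the cell type markers were named after their values were seen. The alternatives tried were a replicate block, a pseudocount of 0.1, only genes with an FPKM of 1 in 2 libraries, quantile normalization, median-ratio scaling, an eBayes trend and leaving out each library.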

Additional observations from a re-analysis of the deposited data

How the results depend on the processing

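PTPRN, PTGS2, PLA2G4A and PTGES3 kept their direction and an adjusted p of at most 0.05 (limma) in all 10 alternatives. The count of members called was 5, and 4 to 6 across the alternatives. The count of differential members fell from 2 to 0 with a pseudocount of 0.1, with the replicate block and without each library in turn (lowest 0, highest 0), and that of all genes from 1111 to 0 in the same settings. By size alone, 2 members changed by a fold of 2 or more, and 3 did with a pseudocount of 0.1. In these settings 4 to 6 members and 8700 to 10185 of all genes had an unadjusted p under 0.05. Without each library in turn, genes called at 0.05 numbered 6181 to 6332 in place of 9603, other pathway genes 35 to 40 in place of 58, and KEGG arachidonic acid genes 17 to 20 in place of 30, with fewer libraries in each fit and the lone library of a group assumed to vary like the others. The sign turned for PTGES at -0.0059 and for PTGER4 at 0.077 with quantile normalization. It also turned without SCR replicate 2 for PTGES (-0.017 to 0.116 over the libraries left out), without PTP2 replicate 1 for PTGER2 (-0.138 to 0.030), and without PTP2 replicate 2 or SCR replicate 2 for PTGER4 (-0.085 to 0.068). The cause was not tested.

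With the replicate block, 5 members and 9139 genes were called at 0.05, and PTGS2 and PLA2G4A had an adjusted p of 0.00396. Deviations of libraries with the same number had a correlation of 0.06, so the numbers were not taken as pairs. The alternatives were extended to 28 named genes outside the members after their values were seen. Of those 280 values 257 kept their direction and call, 23 lost the call and 0 changed sign. At the estimated depth the low counts of PTGS1, PTGIS and HPGD limit what can be detected.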

Other observations

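The leukotriene and lipoxygenase branch, the other main fate of arachidonate, was weakly expressed. Of its 13 genes, 9 were below an FPKM of 1 in all libraries, and 2 rose, 3 fell and 8 did not pass an adjusted p of 0.05 (limma), with a median log2 fold change of -0.01. LTA4H, which makes leukotriene B4, had an FPKM of 15.9 and 17.7 in PTP2 and 12.1 and 11.9 in SCR (log2 fold change 0.45, adjusted p = 0.00626, limma). Its call was lost without SCR replicate 1 (adjusted p = 0.0990) or SCR replicate 2 (0.104). The leukotriene B4 receptors LTB4R (1.46 and 1.18 against 1.96 and 2.17, -0.40, adjusted p = 0.0175) and LTB4R2 (0.83 and 0.63 against 1.41 and 1.09, -0.38, adjusted p = 0.0409) overlap each other, so their reads may not be told apart. Without any 1 of the 4 libraries neither passed, at 0.0558 to 0.169 for LTB4R and 0.111 to 0.241 for LTB4R2.

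The deposited table assigns 85 genes to the KEGG pathway of arachidonic acid metabolism, and 64 of them, 7 members among these, had a value. Of the 64, 16 rose, 14 fell and 34 did not pass (limma), with a median log2 fold change of 0.03. The share called was 46.9%, against 57.9% of all genes. Of the 64, 32 were below an FPKM of 1 in all libraries, which limits this comparison. Without the members, 12 rose, 14 fell and 31 of 57 did not pass, with a median of 0.02. Besides AKR1C3, the genes with the largest changes were AKR1C1, a steroid and prostaglandin reductase with 357.0 and 343.3 in PTP2 and 144.2 and 138.7 in SCR (1.30, adjusted p = 3.45e-04), and CYP2U1, a fatty acid hydroxylase with 1.40 and 1.29 against 4.22 and 4.60 (-1.21, adjusted p = 5.29e-04). AKR1C1 was higher and AKR1C3 lower in PTP2, and both belong to a family of genes similar in sequence.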
